A study of Mus musculus with 10 samples.

Results

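A set of 10 genes of the matrix metalloproteinase system were followed in the mouse amygdala, with and without the secreted serine protease neuropsin. They are the proteinase genes Mmp2, Mmp9, Mmp14, Mmp15, Mmp16, Mmp17 and Mmp24 and the inhibitor genes Timp2, Timp3 and Timp4. Their probe sets were taken where the array annotation names exactly 1 gene, which gave 144 probe sets of the 318760 that carry 1 gene symbol. The knockout group consisted of neuropsin-/- mice, which lack a working Klk8 gene in a line crossed back to C57BL/6 for 12 generations, and the wild-type group of C57BL/6 mice; all were 3 months old and the labels name no treatment. Each group had 5 GeneChip Mouse Exon arrays, and each array was read as a pool of RNA from 3 animals, so differences between single animals are not seen. The labels do not say whether the controls were littermates, which sex the animals had or which exons were deleted.

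Matrix metalloproteinases are zinc-dependent enzymes that cut proteins of the extracellular matrix and of the cell surface, and they are made as inactive proenzymes. Tissue inhibitors of metalloproteinases (TIMPs) bind the active site and block it. In the brain the system is known from the remodelling of synapses and of the matrix around them, and Mmp9 in particular from learning that depends on the amygdala.

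Values are log2 expression, so a difference of 1 is a doubling of signal. A gene level is the mean over a gene's probe sets, each covering about 1 exon, whose average signal lay above 4.94, the median over the whole table. Of the members' 144 probe sets, 132 were above that limit, and each of the 10 genes kept at least 7. Differences are knockout minus wild type with the standard error (SE) of the limma fit across all genes, and p-values adjusted by the Benjamini-Hochberg method passed at 0.05.

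On the first principal component, with 35.5% of the variance, wild-type arrays 4 and 5 stood at 20.5 and 23.5 and the other 8 arrays between -14.2 and 7.45. Knockout arrays 4 and 5 were likewise the highest of their genotype, at 7.45 and 3.14, and arrays 1 and 3 were the lowest in both genotypes. On the second component, with 13.9%, the knockout arrays stood at 1.02 to 10.2 and the wild-type arrays at -15.9 to -1.46. Over its 9 probe sets the targeted gene Klk8 lay between 4.60 and 5.25 in the knockout and between 4.78 and 5.52 in wild type, so the groups overlapped and this mean did not separate the labels, which is no check where probe sets lie outside the deletion. Over its 5 probe sets above the limit the gene level of Klk8 was 5.83 ± 0.28 in the knockout and 6.22 ± 0.28 in wild type (SD, n = 5 each), a difference of -0.39 (SE 0.15, limma unadjusted p = 0.0199, adjusted p = 0.693), and the groups overlapped. All 12 genes of a list of amygdala markers were measured, with a list mean of 8.15 to 8.23 on knockout arrays and 8.09 to 8.26 on wild-type arrays. In that list 6 genes were lower and 6 higher in the knockout. An unadjusted limma p under 0.05 was seen in 3, 1 lower and 2 higher, against 6.98% of all genes. The groups separated completely in 2, against 1.55% of all genes, and none passed after adjustment.

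No member passed at the gene level. Among all genes 4 of 16367 passed, or 0.0244%. At an unadjusted limma p under 0.05 there were 2 of 10 members, against 6.98% of all genes. Timp4 was the lower one in the knockout, where 4.14% of all genes were lower at that level, and Mmp16 the higher one, where 2.84% were higher. The smallest adjusted p among the members was 0.693. A lower mean in the knockout was seen in 6 members, namely all 3 inhibitor genes, Mmp2, Mmp14 and Mmp15, where 50.7% of all genes were lower. The other 4 had a higher mean, where 49.3% of all genes were higher. The members' differences ran from -0.22 to 0.20 with a median of -0.07, and the median over all genes was -0.0019. In none of the 10 genes did the groups separate completely, as they did in 1.55% of all genes.

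**Figure D1:**
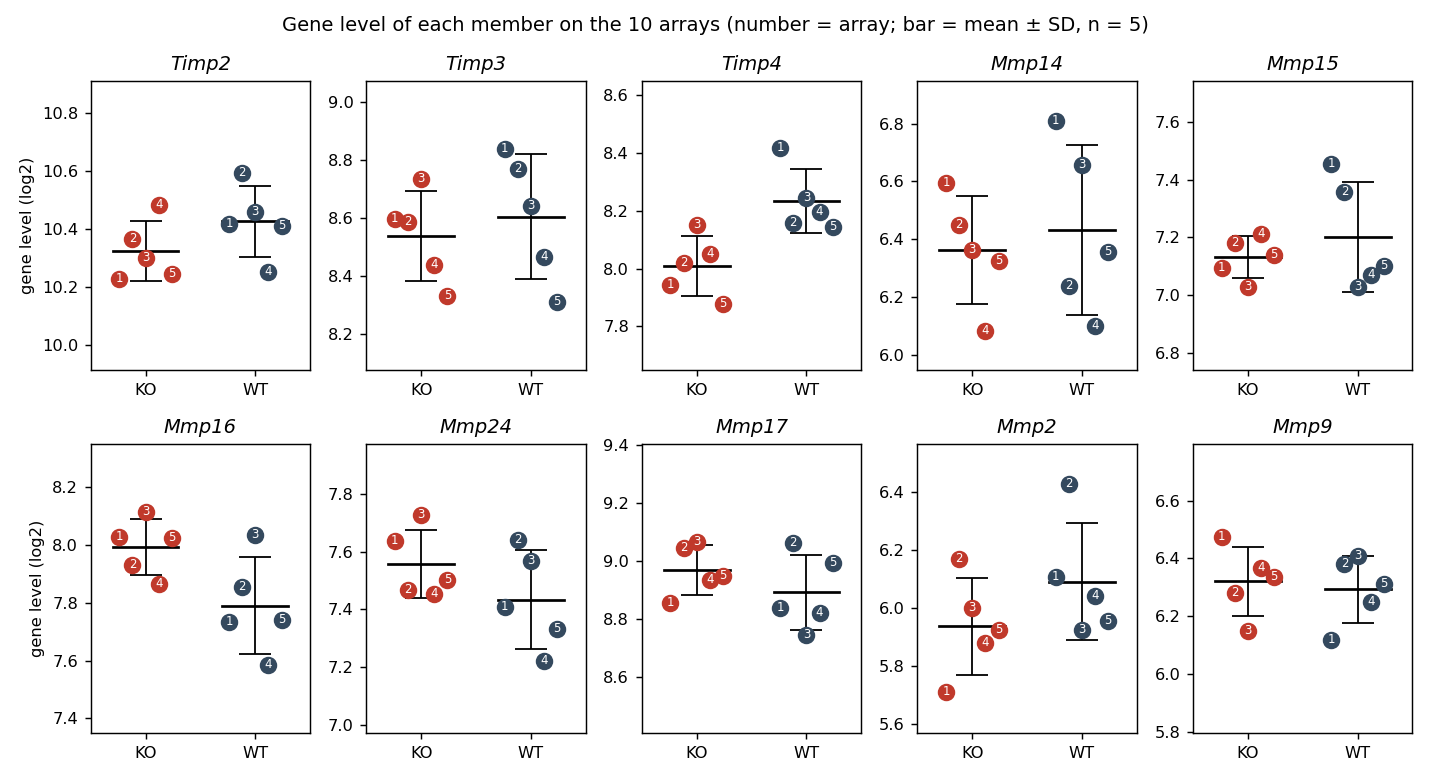
Gene level (log2) of the 3 inhibitors and 7 proteinases, knockout (KO) left and wild type (WT) right, each point an array with its number, bars the mean ± SD of 5 arrays; every panel spans 1 log2 unit. Timp4 is lower on all knockout arrays than the wild-type mean of 8.23, and Mmp16 is higher on all of them than the wild-type mean of 7.79.

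Timp4, an inhibitor known in brain from astrocytes, had the smallest p of the inhibitors. Its gene level over 7 probe sets was 7.94, 8.02, 8.15, 8.05 and 7.88 on the knockout arrays 1 to 5, against 8.42, 8.16, 8.24, 8.19 and 8.14 on the wild-type arrays 1 to 5. Of the 5 knockout arrays 4 were below every wild-type array, and the groups touched only at knockout array 3 and wild-type array 5. The means were 8.01 ± 0.10 in the knockout and 8.23 ± 0.11 in wild type (SD, n = 5 each), a difference of -0.22 with an SE of 0.08, a 95% interval of -0.39 to -0.05 and a limma adjusted p of 0.693. That is 1.17-fold lower in the knockout, and the gene ranked 309 by p among the 16367. All 7 probe sets differed downwards, by -0.41 to -0.0099. Wild-type array 1 was the highest of the 10, and the difference was -0.18 without it and -0.27 without wild-type arrays 4 and 5.

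A single Timp4 probe set of 7, 5318125, separated the genotypes, as 1.10% of all probe sets did. It read 7.07, 7.44, 7.36, 7.26 and 7.39 in the knockout, against 7.64, 7.59, 7.47, 7.87 and 7.86 in wild type. All 5 knockout values were below all 5 wild-type values, with a difference of -0.38 (SE 0.15), and the limma adjusted p over all probe sets was 0.820. Probe set 5452965 differed by a similar amount, -0.41 (SE 0.19), but overlapped between the groups.

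Timp2, the inhibitor that also forms the complex by which Mmp14 activates pro-Mmp2 at the cell surface, was measured by 10 probe sets. The knockout arrays read 10.23, 10.37, 10.30, 10.48 and 10.24, against 10.42, 10.60, 10.46, 10.25 and 10.41 on the wild-type arrays. The groups overlapped, with 2 knockout arrays below the lowest wild-type array. The difference was -0.10 (SE 0.08, 95% interval -0.28 to 0.07, limma adjusted p = 0.834), and it was -0.04 with the median over the probe sets and -0.17 without wild-type arrays 4 and 5. Of the 10 probe sets 8 were lower in the knockout. Probe set 4528310, the one of lowest signal, differed most, by -0.43 (SE 0.18), with 4 of 5 knockout arrays below all wild-type arrays.

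Timp3, the inhibitor that stays bound to the matrix, had 12 probe sets above the limit and 2 below it. It read 8.60, 8.59, 8.73, 8.44 and 8.33 in the knockout, against 8.84, 8.77, 8.64, 8.47 and 8.31 in wild type. Arrays 4 and 5 were the lowest in both genotypes, and the groups overlapped over nearly their whole range. The difference was -0.07 (SE 0.11, 95% interval -0.30 to 0.17, limma adjusted p = 0.918). It was -0.0086 without wild-type array 1, -0.015 without knockout array 5 and -0.21 without wild-type arrays 4 and 5, so its size rested on single arrays. Of its 12 probe sets 8 were lower.

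Of the membrane-bound proteinases, those with a transmembrane segment are Mmp14, Mmp15, Mmp16 and Mmp24, while Mmp17 is held by a lipid (GPI) anchor. Their proenzymes are cut by furin-like proteases before they reach the surface. In this group the means of Mmp16, Mmp24 and Mmp17 were higher and those of Mmp14 and Mmp15 lower in the knockout, none past the threshold.

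Mmp16, known to activate pro-Mmp2 and expressed in brain, was at 8.03, 7.93, 8.11, 7.87 and 8.02 in the knockout, against 7.73, 7.85, 8.04, 7.59 and 7.74 in wild type. All knockout arrays except array 3 lay below the highest wild-type array, and all 5 lay above 4 of the 5 wild-type arrays. The means were 7.99 ± 0.10 in the knockout and 7.79 ± 0.17 in wild type (SD, n = 5 each), a difference of 0.20 with an SE of 0.09, a 95% interval of 0.01 to 0.39 and a limma adjusted p of 0.700. Without wild-type arrays 4 and 5 the difference was 0.12 (unadjusted p = 0.207), and without wild-type array 3 it was 0.26. Of its 19 probe sets above the limit 17 were higher in the knockout, by up to 0.57, and the median difference was 0.23.

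For Mmp16, 3 of 19 probe sets had an unadjusted limma p under 0.05, all higher in the knockout, against 5.97% of all probe sets. Probe sets of 1 gene were read on the same arrays, so they do not count as separate support. Probe set 4488209 read 9.39, 9.26, 9.52, 9.39 and 9.50 in the knockout, against 9.18, 8.84, 9.19, 9.08 and 9.11 in wild type. The groups did not overlap there, at a difference of 0.33 (SE 0.14, limma adjusted p = 0.828). Probe set 4476615 differed by 0.32 with 4 of 5 knockout arrays above all wild-type arrays, and probe set 5427570 by 0.57 with 3 of 5.

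Mmp24, a proteinase enriched in neurons and known to cut N-cadherin, read 7.63, 7.47, 7.72, 7.45 and 7.50 in the knockout, against 7.41, 7.64, 7.57, 7.22 and 7.33 in wild type. The groups overlapped. The difference was 0.12 (SE 0.09, 95% interval -0.08 to 0.32, limma adjusted p = 0.822), with 11 of 13 probe sets higher. Without wild-type arrays 4 and 5, the lowest of the 10, it was 0.018, and with array weights it was 0.06.

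Mmp17 read 8.85, 9.04, 9.07, 8.94 and 8.95 in the knockout, against 8.84, 9.06, 8.74, 8.82 and 8.99 in wild type. The knockout arrays lay within the wild-type range, except for array 3 just above it. The difference was 0.08 (SE 0.08, 95% interval -0.09 to 0.25, limma adjusted p = 0.867), and it was 0.04 without wild-type array 3 and 0.20 when the 15 probe sets were summarised by their median. Of these 10 were higher, and probe set 5273365 differed by 0.43 (SE 0.19), with 4 of 5 knockout arrays above all wild-type arrays.

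Mmp14, the main activator of pro-Mmp2, was at 6.59, 6.45, 6.36, 6.08 and 6.32 in the knockout, against 6.81, 6.24, 6.66, 6.10 and 6.35 in wild type. It had the widest spread of the members, with an SD of 0.19 in the knockout and 0.29 in wild type. The difference of -0.07 (SE 0.13, 95% interval -0.35 to 0.22, limma adjusted p = 0.932) had no settled direction: it was 0.026 without wild-type array 1, 0.0016 without knockout array 4 and 0.0057 with the median over probe sets, but -0.21 without wild-type arrays 4 and 5. Of its 14 probe sets above the limit 8 were lower and 6 higher.

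Mmp15 read 7.09, 7.18, 7.03, 7.21 and 7.14 in the knockout, against 7.45, 7.36, 7.03, 7.07 and 7.10 in wild type. Wild-type arrays 1 and 2 were above all others, and the remaining 8 arrays lay close together. The difference was -0.07 (SE 0.09, 95% interval -0.27 to 0.13, limma adjusted p = 0.893), and it was -0.0081 without wild-type array 1, -0.15 without wild-type arrays 4 and 5 and -0.18 without arrays 4 and 5 of both genotypes. Of its 14 probe sets 10 were lower, the largest difference being 4417381 at -0.57 (SE 0.26), while probe set 5404298 went the other way at 0.51 (SE 0.25).

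**Figure D2:**
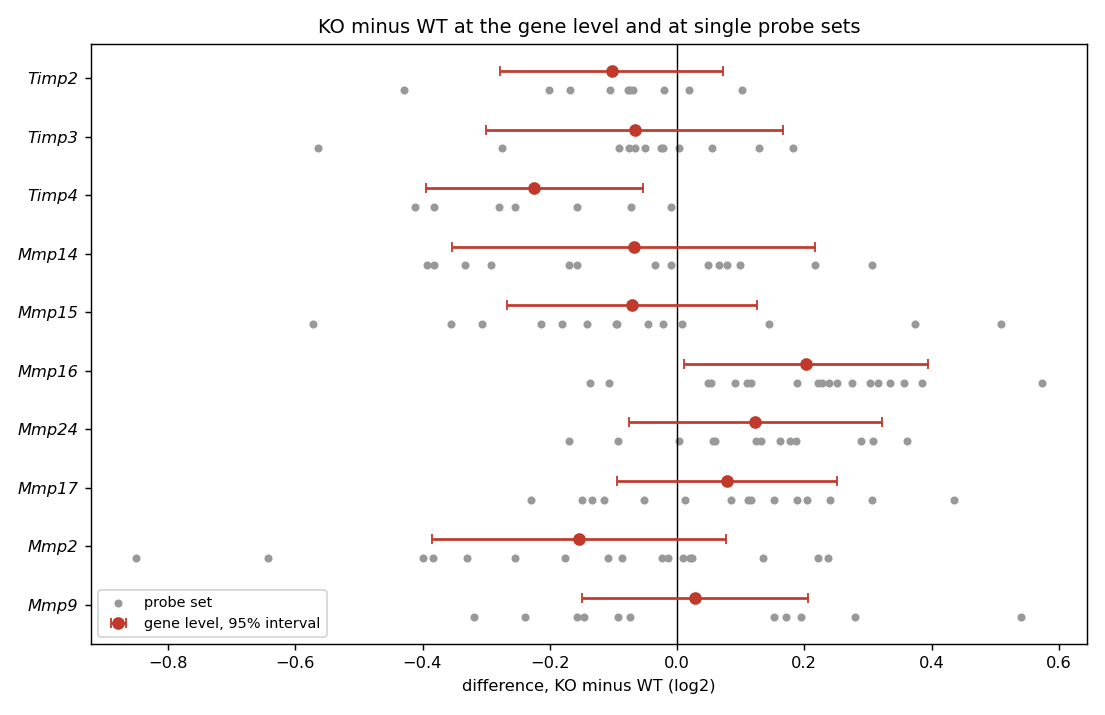
Difference between knockout and wild type (log2), with the gene level and its 95% interval from the limma fit in red and each probe set above the intensity limit as a grey point. The intervals of Timp4 (-0.39 to -0.05) and Mmp16 (0.01 to 0.39) leave out 0 before any adjustment, and probe sets of the same gene scatter on both sides of 0 for all genes except Timp4.

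Mmp2 and Mmp9 are the secreted gelatinases, which cut denatured collagen and, among other targets, cell adhesion proteins. Mmp2 read 5.71, 6.17, 6.00, 5.88 and 5.93 in the knockout, against 6.11, 6.43, 5.93, 6.04 and 5.95 in wild type. The difference was -0.15 (SE 0.11, 95% interval -0.38 to 0.08, limma adjusted p = 0.800), and it was -0.07 without wild-type array 2, the highest, and -0.10 without knockout array 1, the lowest. Of its 17 probe sets 11 were lower. Its gene level was the lowest of the members, with a mean of 5.94 in the knockout and 6.09 in wild type, not far above the intensity limit.

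For Mmp2, 3 of 17 probe sets had an unadjusted limma p under 0.05, all lower in the knockout, against 5.97% of all probe sets. Probe set 5544055 read 4.10, 6.09, 5.26, 6.11 and 5.89 in the knockout, against 6.39, 6.38, 6.15, 6.32 and 6.47 in wild type. The groups did not overlap, although knockout array 1 alone was far below the rest and under the intensity limit of 4.94. The difference was -0.85 (SE 0.32, limma adjusted p = 0.818). Probe set 5169942, the Mmp2 probe set of highest signal, differed by -0.40 (SE 0.15) with 4 of 5 knockout arrays below all wild-type arrays. Probe set 4437671 differed by -0.64 (SE 0.27).

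Mmp9 was close to the intensity limit, with 11 probe sets above it and 7 below. Over the 11 it read 6.47, 6.28, 6.15, 6.37 and 6.34 in the knockout, against 6.12, 6.38, 6.41, 6.25 and 6.31 in wild type. The difference was 0.03 (SE 0.08, 95% interval -0.15 to 0.21, limma adjusted p = 0.957), and over all 18 probe sets it was 0.04 (SE 0.08). It turned to -0.12 with the median over probe sets and to -0.016 without wild-type array 1, so no direction can be given. None of its probe sets had an unadjusted p under 0.05.

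Across single probe sets none of the 132 passed, where 15 of 628415 did among all probe sets, or 0.00239%. At an unadjusted limma p under 0.05 there were 10 of the 132, 6 lower and 4 higher in the knockout. That is 7.58%, against 5.97% of all probe sets tested. Of the 132, 3 separated the genotypes completely, those of Timp4, Mmp16 and Mmp2 given above. That is 2.27%, against 1.10% of all probe sets. The remaining 12 member probe sets lay below the intensity limit, 7 of them in Mmp9, 2 each in Mmp14 and Timp3 and 1 in Mmp16.

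Exon usage was examined with diffSplice of limma, which asks whether a probe set differs from the others of its gene. No member passed, where 1.69% of all genes did, and when each probe set had its own variance 0.0367% of all genes did and again no member. The smallest Simes adjusted p was 0.536 for Mmp15, where the difference of probe set 5404298 was 0.62 above that of the gene's other probe sets. Timp3 followed at 0.584, with probe set 4526081 at -0.54 relative to the others of its gene, and Timp2 at 0.649, with probe set 4528310 at -0.36. At an unadjusted Simes p under 0.05 there was likewise no member, the smallest being 0.0719.

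**Figure D3:**
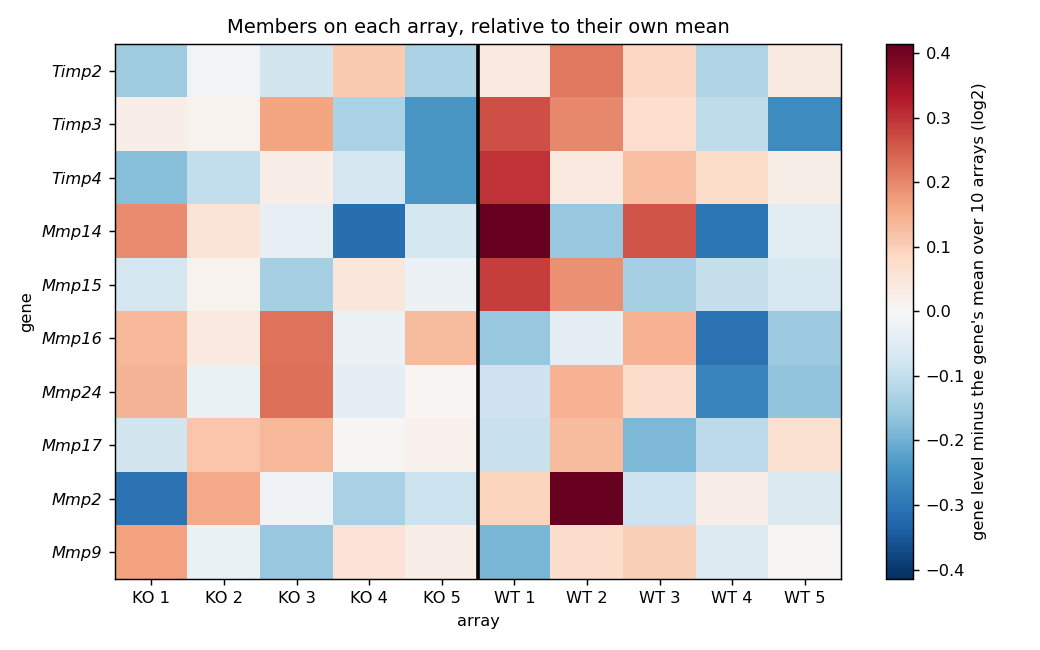
Gene level of each member on each array minus that gene's mean over the 10 arrays (log2), knockout arrays left of the black line and wild-type arrays right of it. Wild-type array 1 is high for Timp3, Timp4, Mmp14 and Mmp15, wild-type array 4 is low for Mmp14, Mmp16 and Mmp24, and no row divides cleanly at the line.

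The arrays differed among themselves in ways that some members shared. On wild-type array 1 Timp3, Timp4, Mmp14 and Mmp15 had their highest value of the 10 arrays, and Mmp9 its lowest. On wild-type array 4 Mmp16 and Mmp24 had their lowest. Knockout array 3 gave the highest value for Mmp16, Mmp17 and Mmp24 and wild-type array 2 the highest for Timp2 and Mmp2. The SD within a genotype ran from 0.07 (Mmp15, knockout) to 0.29 (Mmp14, wild type), and in 9 of the 10 genes it was larger in wild type than in the knockout, Mmp9 being the exception.

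After each genotype's mean was subtracted, the genes whose levels followed a member most closely over the 10 arrays were read out as a description, by Pearson correlation. For Timp4 they were the transcription factor gene Sim1 (0.958) and the kainate receptor subunit gene Grik4 (0.954), for Timp2 Ypel1 (0.970) and the carbonic anhydrase gene Car4 (0.953), and for Timp3 Heph (0.974) and the ribosomal protein gene Rps9 (0.970). For Mmp16 they were Alpk1 (0.974) and Farp2 (0.965), and for Mmp24 the DNA methyltransferase gene Dnmt1 (0.978) and Lin54 (0.967). Mmp17 was nearest to the peptidase gene Thop1 (0.984) and Nxph3 (0.977), Mmp14 to Zfyve16 (0.975) and Dop1b (0.966), and Mmp15 to Dcakd (0.977) and Slc46a3 (0.966). Mmp2 was nearest to the kinase gene Camk1 (0.984) and Cnn2 (0.976), and Mmp9 to Cnmd (0.966) and Cmss1 (0.939). These are the highest values among 16367 genes, each over 10 arrays with their shared array effects, and no 2 members had the same nearest gene.

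Markers of other cell types and of a neighbouring region are given beside the members. Of 8 measured hypothalamus markers 7 were lower in the knockout, with a median difference of -0.36. Their mean level was 5.99 to 6.25 on knockout arrays and 6.34 to 6.95 on wild-type arrays, without overlap. Of the 8, 5 had an unadjusted limma p under 0.05, all lower, against 6.98% of all genes. Complete separation of the groups was seen in 2, against 1.55% of all genes, and no marker of this list passed after adjustment. Sim1, the nearest gene of Timp4, is in this list and differed by -0.49 (SE 0.16), and the melanin-concentrating hormone gene Pmch differed by -1.88 (SE 0.39). The arrays do not show whether a listed gene was expressed in hypothalamic tissue or in the amygdala itself. The part of hypothalamic tissue in the Timp4 difference was not tested. In dissected tissue fewer cells of a type and less RNA per cell cannot be told apart.

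The choroid plexus, known for its transthyretin, was represented by 10 markers, all lower in the knockout, with a median difference of -0.23 and none at an unadjusted p under 0.05. Their mean level ranged from 5.95 to 7.24 on knockout arrays and from 6.13 to 7.28 on wild-type arrays, and the transthyretin gene Ttr alone from 7.26 to 11.9 and from 8.74 to 11.8. Knockout arrays 4 and 5 and wild-type array 4 were the 3 lowest of the 10 for this list and were also among the 4 lowest for Timp3. Other arrays did not match in this way. Wild-type array 5, the lowest for Timp3 at 8.31, stood at 6.74 for the list, and wild-type array 1, the highest at 8.84, at 6.71. The part of the choroid plexus in the levels of Timp3 was not tested.

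Astrocyte markers, beside which Timp4 is to be read, had a median difference of -0.04, with 6 of 8 lower. Their mean level was 8.76 to 8.85 on knockout arrays and 8.65 to 9.03 on wild-type arrays, so the knockout arrays lay inside the wild-type range. Of 7 oligodendrocyte markers all were lower, at a median of -0.28, and their mean level was 8.24 to 8.64 on knockout arrays and 8.22 to 9.18 on wild-type arrays. All 8 microglia markers were lower at a median of -0.05, 4 of 6 endothelial markers at -0.02, 5 of 7 vessel wall markers at -0.05 and 5 of 9 meningeal and fibroblast markers at -0.02. Of 5 neuron markers 4 were higher, at a median of 0.06. An unadjusted limma p under 0.05 was seen in 2 of the 7 oligodendrocyte markers, both lower, against 6.98% of all genes. It was also seen in 1 of the 6 endothelial and 1 of the 5 neuron markers, both higher. The other lists of this paragraph had none. None of these markers passed at the gene level, and their part in the members' differences was not tested.

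**Figure D4:**
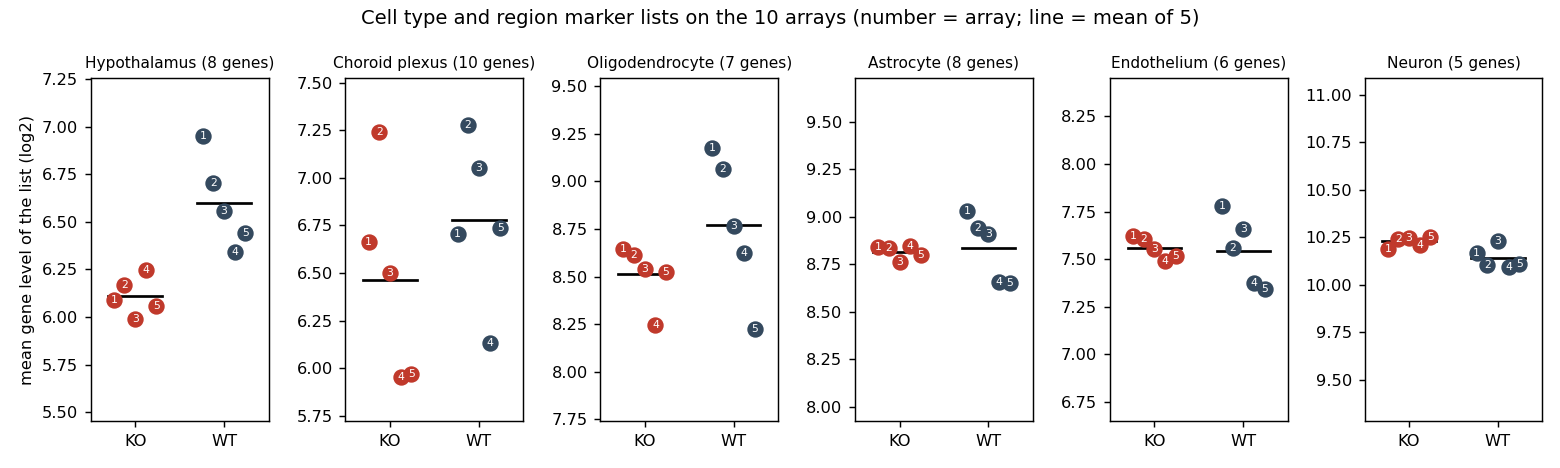
Mean gene level (log2) of 6 marker lists on each array, knockout (KO) left and wild type (WT) right, with the array number in each point and a line at the mean of 5. The hypothalamus list separates the genotypes (5.99 to 6.25 in the knockout, 6.34 to 6.95 in wild type), while the other 5 lists overlap.

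Around the members, 77 of 85 genes of the wider pathway were measured, and none passed at the gene level. At an unadjusted limma p under 0.05 there were 7 of the 77, against 6.98% of all genes in either direction. All 7 were higher in the knockout and 0 lower, where 2.84% of all genes were higher and 4.14% lower at that level. The genotypes separated completely in 5 of the 77, as they did in 1.55% of all genes. Their median difference was 0.01.

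Of the other metalloproteinases and Timp1, 10 of 17 were measured, and the other 7 had fewer than 3 probe sets above the limit. Of the 10, 9 were lower in the knockout, at a median of -0.09, and none had an unadjusted p under 0.05. Mmp25, the other lipid-anchored proteinase, differed by -0.15 (SE 0.09) and Mmp10, a secreted stromelysin, by -0.20 (SE 0.13). Mmp3 and Timp1, genes known from injury and inflammation, had only 2 and 1 probe sets above the limit and were not tested.

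Among 17 activators, inhibitors and clearance receptors, 11 were lower and 6 higher, with none at an unadjusted p under 0.05. A2m, a broad protease inhibitor of plasma, differed by -0.33 (SE 0.16) and Plg, the plasmin precursor, by -0.20 (SE 0.10). Pcsk5, a furin-like convertase, differed by 0.16 (SE 0.08). Of 21 ADAM and ADAMTS metalloproteinases 12 were higher. Adamts10 at 0.17 (SE 0.07) was the single one of the 21 with an unadjusted limma p under 0.05, against 6.98% of all genes. Its knockout arrays were all above its wild-type arrays, a separation seen in 1.55% of all genes. Adamts4, an aggrecanase that Timp3 inhibits, differed by -0.23 (SE 0.11).

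Of the genes listed as substrates in the synapse and the brain matrix, 29 of 30 were measured. The arrays read RNA, so no cutting by the member proteinases was measured. Of the 29, 23 had a higher mean in the knockout, with a median of 0.05, where 49.3% of all genes had a higher mean. At an unadjusted limma p under 0.05 there were 6 of the 29, against 6.98% of all genes in either direction. All 6 were higher in the knockout, where 2.84% of all genes were higher and 4.14% lower at that level. The matrix glycoprotein gene Tnc was at 6.48, 6.36, 6.28, 6.36 and 6.39 in the knockout, against 6.10, 6.26, 6.28, 5.93 and 6.16 in wild type. All its knockout arrays were above all its wild-type arrays, though knockout array 3 and wild-type array 3 read the same at this rounding, at a difference of 0.23 (SE 0.08, limma adjusted p = 0.693). The proteoglycan gene Ncan also separated the groups at 0.17 (SE 0.07), and the guidance receptor gene Epha4 and the dendritic adhesion gene Icam5 differed by 0.23 (SE 0.09) and 0.21 (SE 0.08). Bcan, a brain proteoglycan, and Dag1, the dystroglycan gene, differed by 0.06 (SE 0.07) and 0.04 (SE 0.08).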

How the data were processed

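The deposited table holds log2 expression values, made by the authors with RMA in Affymetrix Expression Console, according to the submitters' processing notes and per the labels; no version or genome build is given in the sources used here. Gene names came from the platform annotation, with symbols updated from the GRCm38.p6 gene table. Of 1256831 probe sets 628415 exceeded the limit of 4.94, and genes with at least 3 such probe sets of a single symbol were tested, 16367 in all. Gene levels, probe sets and exon usage were compared with limma version 3.58.1 in R version 4.3.3 (lmFit, eBayes, diffSplice; two-sided, no covariates, adjusted over the whole table), and the scripts were tested on simulated data. Precision is limited by the 5 arrays per genotype, whose labels do not say how pools were formed. The p-values set each difference against the spread between pooled arrays, not between single animals. The members, the gene lists and the rule for named genes (all members, up to 4 genes of smallest p per list, 2 nearest genes and the leading probe set per member) were chosen with earlier results of these data known; Bcan, Dag1, Ttr, Mmp3, Timp1 and further probe sets were named after their values were seen. No set test was run. Alternatives covered normalization, intensity limit, replicate block, array weights, variance prior, left-out arrays, threshold, probe set summary and exon usage test. Scanner data were not used here, so background correction and slide could not be varied.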

Additional observations from a re-analysis of the deposited data

Results flagged for a closer look

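Among 48 groups of 5 arrays (the 10 members and 14 lists in each genotype), 1 had an array set apart from the other 4 relative to the group's range, where chance gives about 1 in 20. For the mean level of the activators, inhibitors and clearance receptors, knockout array 2 stood at 7.64 and the other 4 knockout arrays at 7.54 to 7.56.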

How the results depend on the processing

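No member gene, member probe set, member exon usage or pathway gene passed under any alternative run, and the lowest adjusted p-values were 0.295, 0.626, 0.250 and 0.212 for these 4 counts. Of the members' differences 220 of 229 kept their direction. Among the alternatives, the replicate block, variance prior, looser threshold and minimum of 1 probe set left these differences unchanged by design and could not reverse them. Removal of the intensity limit likewise could not change Mmp2, Mmp15, Mmp17, Mmp24, Timp2 and Timp4, whose probe sets all lay above it. The stricter limit could not change Mmp17 and Timp2 for the same reason. Mmp9 turned to -0.012 with the stricter intensity limit, -0.00048 without arrays 4 and 5 of both genotypes, -0.12 with the median and -0.10 with median polish over probe sets, and lay between -0.016 and 0.071 with 1 array left out. Mmp14 was 0.0057 with the median over probe sets and between -0.15 and 0.026 with 1 array left out. Timp4 had an unadjusted p under 0.05 in 22 of 23 alternatives (-0.27 to -0.15; the exception was the median over probe sets) and Mmp16 in 12 of 23 (0.12 to 0.26). Both counts include the looser threshold, which repeats the unadjusted p of the main fit. With the stricter limit Mmp2 had too few probe sets for a value. With the replicate number as a block 0 members passed, with the lowest limma adjusted p at 0.362 for Timp4 (unadjusted p = 0.0143, and 0.0166 for Mmp16). Same-numbered arrays correlated at 0.0817 (number 2) to 0.412 (number 4) in their deviations. With other numbers the medians were lower, at -0.218 to -0.0131. For numbers 1, 3 and 4 both arrays matched their own number best, and for number 5 neither did. The labels do not say what a number stands for, and the main fit did not use it.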
